A study of Mus musculus with 12 samples.

Results

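Brain RNA of 2 mouse strains that both carry a disrupted Plat gene, called Old and New in the sample titles, was compared directly. Plat encodes tissue-type plasminogen activator (tPA). The libraries were chosen by their titles and by 1 measured value, the GC-linked deviation described next, which leaves 7 of the 12 libraries of the study: Old 2, Old 3 and Old 4 against New 1, New 2, New 3 and New 4, each from 1 mouse. The Old library left out, Old 1, had values that deviated with the GC content of the transcripts, and it is given beside part of the results. All groups were labelled as C57BL/6 mice aged 6 weeks. The Old and New mice were Plat-/- on this background and were kept by the laboratory. The 4 wild-type (WT) mice were C57BL/6J mice bought from a supplier. WT 1, WT 2 and WT 3 serve here as a further point of reference, whereas WT 4 shared the deviation of Old 1. The labels name the strains as independent of each other. They do not say how either allele was made, which part of the gene it lacks, or from which litters the mice came.

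tPA is a secreted serine protease that cuts plasminogen to plasmin, the enzyme that dissolves fibrin clots. In brain it is made by neurons, glia and vessels, and it is known for roles in synaptic plasticity and in the opening of the blood-brain barrier. Its activity is held in check by serpins, among them neuroserpin and protease nexin-1, and it is cleared through the receptor Lrp1. A pair of independent strains that lack the same gene shares the missing product. Each strain can also carry its own DNA around the altered gene and elsewhere in the genome.

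Levels were deposited as FPKM (fragment counts divided by transcript length and by library size), so the read depth behind a value is unknown and the spread between mice is the measure of error. The tissue label reads cerebral cortex, while the protocol describes a brain without olfactory bulb and cerebellum. Transcripts of deeper regions were present: Penk, an opioid peptide gene strong in striatum, ran from 89.8 to 105.5 FPKM in the 7 libraries, and Th, the enzyme that starts dopamine synthesis, from 1.25 to 3.27 FPKM. The cortical kinase gene Camk2a ran from 349.3 to 384.0 FPKM. The median deviation of transcripts with under 40% GC was -0.55 log2 units in Old 1 and 0.04 to 0.16 in the 7 libraries used. For transcripts with at least 60% GC it was 0.70 in Old 1 and -0.16 to -0.08 in the 7. The Y-linked gene Ddx3y was present at 15.4 FPKM in Old 4 and 13.4 FPKM in New 1 and at no more than 0.0242 FPKM in the other 5 libraries, so both strains held 1 such library.

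Few genes separated the strains. Of 16166 genes with a mean of at least 0.5 FPKM over the 7 libraries, 6 differed between Old and New at an adjusted p under 0.05 (limma, Benjamini-Hochberg over all tested genes), which is 0.0371% of the tested genes, and such genes are referred to as called. Of these, 5 were higher in Old and 1 was lower. There were 757 genes (4.68%) with an unadjusted p under 0.05, against 808 if no gene differed. Old was higher in 411 of them (2.54%) and lower in 346 (2.14%). Every Old library lay above every New library for 548 genes (3.39%) and below for 419 genes (2.59%).

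Libraries of different strains were about as alike as libraries of the same strain. Over the 12 pairs that joined an Old with a New library, the Spearman correlation across genes was 0.961 to 0.970, and 268 to 340 genes per pair differed by more than 2-fold. Within New, the 6 pairs gave 0.962 to 0.971 and 272 to 342 genes. Within Old, the 3 pairs gave 0.967 to 0.971 and 264 to 334 genes. These values were taken across genes, which are no independent replicates, and are descriptions of library pairs. For 15447 genes (95.6%) the 95% interval of the difference lay within 1 log2 unit of 0, and for 13317 genes (82.4%) within 0.5. Among genes at 10 FPKM or more, 95.8% had an interval within 0.5 of 0, against 36.4% of genes at 0.5 to 1 FPKM.

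**Figure D1:**
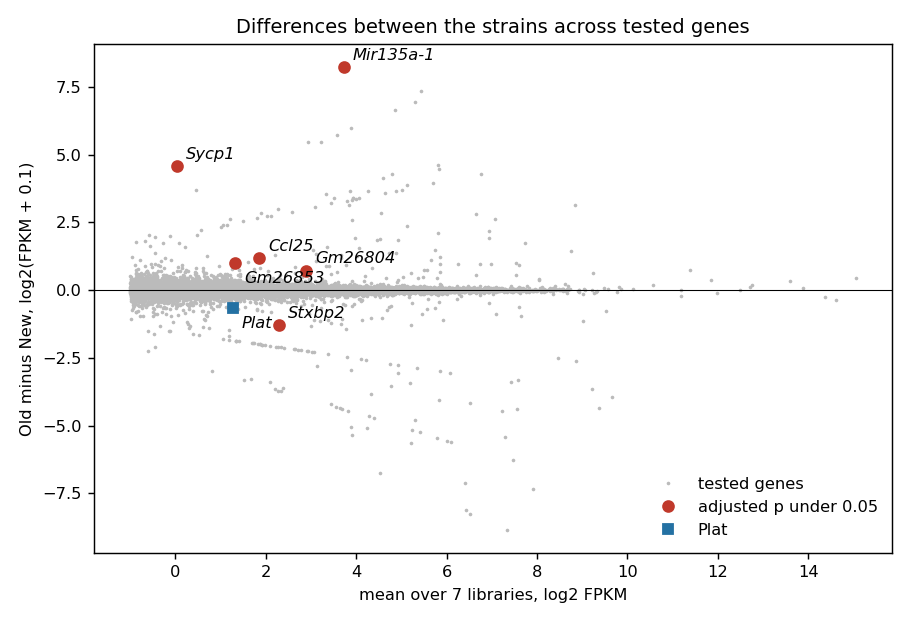
Difference between the strains (Old minus New, log2(FPKM + 0.1), vertical axis) against the mean over the 7 libraries (log2 FPKM, horizontal axis), 1 point per tested gene. Red points are the 6 called genes, the blue square is Plat, and most of the other far points are genes with an annotated span under 200 bases, which were often listed at 0.

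Plat itself was examined first. Its transcript stood at 1.87 FPKM in Old 2, 1.40 in Old 3 and 2.09 in Old 4, and at 2.82 in New 1, 2.77 in New 2, 3.15 in New 3 and 2.77 in New 4. WT 1, WT 2 and WT 3 stood at 9.83, 8.01 and 8.94 FPKM. Both strains therefore lay below every WT library, and every Old library lay below every New library, with Old 1 at 1.69 FPKM inside the Old range. The Old mean of 1.79 ± 0.357 FPKM (SD, n = 3) was 20.01% of the mean of WT 1 to 3, and the New mean of 2.88 ± 0.182 FPKM (n = 4) was 32.2%. Old minus New was -0.67 (SE 0.13) on the log2(FPKM + 0.1) scale and did not pass the adjustment (limma, unadjusted p = 0.00112, adjusted p = 0.733). It was not called under any of the 22 alternative settings, where the adjusted p ran from 0.297 to 0.999 and the difference from -0.79 to -0.48. Exact permutation of the 3 and 4 libraries gave a two-sided p of 0.0571, the smallest that the 35 assignments allow. Gene-level FPKM pools all exons of Plat (chromosome 8, 22757727 to 22782844, plus strand, GRCm38), so these values do not show which exons each allele still transcribes.

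The called gene with the clearest on and off pattern was Sycp1, which encodes the transverse filament protein of the synaptonemal complex, the scaffold that holds paired chromosomes together in meiosis. Sycp1 stood at 2.39 FPKM in Old 2, 2.40 in Old 3 and 2.37 in Old 4. It was listed at 0 in New 1, New 2 and New 4 and stood at 0.0157 FPKM in New 3. WT 2, WT 3 and WT 4 were listed at 0 and WT 1 stood at 0.0161 FPKM. The transcript was thus present at an even level in the Old mice used, at 1.53 FPKM in Old 1, and at or near 0 in the other strain and in WT. The difference was 4.58 (SE 0.20) on the log2(FPKM + 0.1) scale (limma, adjusted p = 0.000209). It was called under all 22 alternatives, but its size follows the pseudocount and ran from 1.75 to 7.56. The strains overlapped for its partners in the same complex: Sycp3, a protein of the lateral elements, stood at 2.87 to 4.48 FPKM in Old and 4.00 to 4.82 in New, and Sycp2 at 1.15 to 1.45 and 1.06 to 1.46 FPKM. Of 8 tested genes in a list of meiosis and synaptonemal complex genes, 1 was called, 4 were higher and 4 lower, and the median difference was 0.00. Sycp2 was named after its values were seen.

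Stxbp2 was the 1 called gene that was lower in Old. It encodes Munc18-2, which binds syntaxins and is needed for granule release from cytotoxic lymphocytes, mast cells and platelets. Its level was 2.38 FPKM in Old 2, 2.51 in Old 3 and 2.98 in Old 4, against 6.62, 6.25, 6.98 and 6.44 in New 1 to New 4. The ranges did not overlap, the WT libraries WT 1 to 3 (5.57 to 6.33 FPKM) lay with New, and Old 1 at 3.13 FPKM lay nearer to Old. The Old mean of 2.62 ± 0.312 FPKM (SD, n = 3) was lower than the New mean of 6.57 ± 0.309 FPKM (n = 4), a 2.51-fold difference. On the log2(FPKM + 0.1) scale the difference was -1.30 (SE 0.08; limma, adjusted p = 0.00188), and it was called under all 22 alternatives (adjusted p 7.95e-05 to 0.0295). Of 20 tested genes for Munc18 proteins, syntaxins and their partners, 10 were higher and 10 lower, and Stxbp2 was the 1 called.

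Ccl25 was higher in Old. It encodes a chemokine made in thymus and gut, where it draws T cells that carry the receptor CCR9. It stood at 4.71 FPKM in Old 2, 5.89 in Old 3 and 5.58 in Old 4, and at 2.33, 2.13, 2.17 and 2.55 in New 1 to New 4. Every Old library was above every New and WT library, with Old 1 at 3.62 FPKM between them and WT 1 to 3 at 1.72 to 2.37. The means were 5.39 ± 0.611 FPKM (SD, n = 3) and 2.29 ± 0.189 FPKM (n = 4), a 2.35-fold difference. The difference was 1.20 on the log2(FPKM + 0.1) scale (SE 0.10; limma, adjusted p = 0.00919). The call was lost without Old 3 (adjusted p = 0.0527), Old 4 (0.0754), New 1 (0.0748) or New 3 (0.0887), and with Old 1 added (0.337), though with Old 1 added and the GC trend of each library removed it held (0.00122). With all 12 libraries in the fit it was lost, both without and with removal of the GC trend (0.0858 and 0.120). The annotated span of Ccl25 shares 204 bases with Elavl1 on the opposite strand, and the library kit did not mark strand. Elavl1, an RNA-binding protein gene named after its values were seen, stood at 17.1 to 18.1 FPKM in Old and 16.1 to 16.9 in New and was not called. Of 15 tested chemokine and receptor genes 3 were higher and 12 lower, with Ccl25 the 1 called. Ccl19, a chemokine of lymphoid tissue, stood at 1.16 to 1.26 FPKM in Old and 1.45 to 2.06 in New (adjusted p = 0.960). Old 1, at 1.876 FPKM, lay within the New range for Ccl19.

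The promoter windows of these 3 protein-coding genes are shown because their transcripts separated the strains. They run from 250 bases before to 50 bases after the annotated start, come from RefSeq on GRCm38.p6, and are written in the direction of the gene. They lie at chr3:102936051-102936350 (minus strand), chr8:3630859-3631158 (plus strand) and chr8:4324960-4325259 (plus strand). They are reference sequence and do not show which bases either strain carries. Capitals mark CACGTG, an E-box that is the same on both strands, and ATTGG, which is CCAAT read on the other strand.
Sycp1: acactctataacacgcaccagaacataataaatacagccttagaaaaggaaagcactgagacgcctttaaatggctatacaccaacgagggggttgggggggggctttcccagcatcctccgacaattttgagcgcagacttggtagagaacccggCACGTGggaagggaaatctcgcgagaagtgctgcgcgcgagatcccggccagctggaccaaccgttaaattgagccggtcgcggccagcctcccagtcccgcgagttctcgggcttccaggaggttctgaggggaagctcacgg
Stxbp2: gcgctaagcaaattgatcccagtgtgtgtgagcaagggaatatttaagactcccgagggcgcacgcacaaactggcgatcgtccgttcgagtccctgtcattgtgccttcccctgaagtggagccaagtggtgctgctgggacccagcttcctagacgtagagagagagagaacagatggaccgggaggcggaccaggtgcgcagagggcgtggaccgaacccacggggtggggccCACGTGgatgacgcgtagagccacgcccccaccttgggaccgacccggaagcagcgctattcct
Ccl25: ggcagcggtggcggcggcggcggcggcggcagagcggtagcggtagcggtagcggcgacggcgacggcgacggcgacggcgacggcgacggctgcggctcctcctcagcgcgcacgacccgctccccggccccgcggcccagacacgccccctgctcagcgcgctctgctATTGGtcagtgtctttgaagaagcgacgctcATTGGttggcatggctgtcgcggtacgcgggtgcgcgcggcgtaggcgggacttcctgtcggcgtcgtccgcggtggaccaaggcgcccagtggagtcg

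CACGTG occurred once in the Sycp1 window and once in that of Stxbp2, and in 7.15% of 32851 promoter windows of the same length. CCAAT or ATTGG occurred in the Ccl25 window at 2 places and in 37.4% of all windows. Neither GGGCGG nor TATAAA, on either strand, was found in these 3 windows, and 35.7% and 13.6% of all windows held them. The windows held 21 CG dinucleotides for Sycp1, 22 for Stxbp2 and 52 for Ccl25, against a median of 7, and 0.575% of windows held at least as many as Ccl25. No binding or methylation was measured, and these matches are descriptions of letters only.

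The other 3 called genes were non-coding, and 2 of them lay close to Plat on chromosome 8. Gm26804 (ENSMUSG00000097263.1), a long intergenic RNA 2.47 Mb below the start of Plat, stood at 9.74, 9.66 and 9.56 FPKM in Old 2 to Old 4 and at 6.05, 5.63, 5.69 and 5.86 in New 1 to New 4. WT 1 to 3 stood at 5.50 to 6.25 FPKM and so lay with New. The difference was 0.72 (SE 0.04; limma, adjusted p = 0.000969). Old 1, at 5.09 FPKM, did not lie with the other Old libraries, and with Old 1 added the call was lost (0.50, adjusted p = 0.929). With Old 1 added and the GC trend of each library removed it held (0.65, adjusted p = 0.00215). Gm26853 (ENSMUSG00000097230.1), another long intergenic RNA 2.97 Mb below Plat, stood at 3.45, 3.47 and 3.77 FPKM in Old and 1.97, 1.60, 1.52 and 1.80 in New. The difference was 1.01 (SE 0.10; limma, adjusted p = 0.0291). Old 1 stood at 2.095 FPKM, nearer to New. This call was the least firm of the 6: it was lost without any 1 of the libraries other than New 1 (adjusted p 0.0993 to 0.165) and with Old 1 added (0.929). It was also lost with no filter on low values (0.0589) and with all 12 libraries (0.983). With the GC trend of each library removed it held, both with Old 1 added (0.00536) and with all 12 libraries (0.00018).

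Neighbours of these transcripts were also higher in Old 2 to Old 4 without being called. 6820431F20Rik, a transcribed pseudogene next to Gm26804, stood at 11.0, 12.6 and 13.4 FPKM in Old and 5.77, 6.04, 4.79 and 6.91 in New. Old was 2.101-fold higher on the means of 12.35 ± 1.22 FPKM (SD, n = 3) and 5.88 ± 0.873 FPKM (n = 4), with no overlap of the libraries used (1.07, SE 0.12; limma, adjusted p = 0.0783). Old 1, at 5.597 FPKM, lay within the New range. With Old 1 added the difference was 0.785 (limma, adjusted p = 0.9295), and 0.902 (0.6206) with the GC trend also removed. 6820431F20Rik passed with WT 1 to 3 in the fit (0.0165), the GC trend removed (0.0443), library weights (0.0400) and genes of at least 200 bases only (0.0261), and stayed above 0.05 under the other 18 alternatives. 2610005L07Rik, another pseudogene of the same stretch, stood at 1.60 to 1.99 FPKM in Old and 0.919 to 1.21 in New (0.82, SE 0.13; limma, adjusted p = 0.409). The span of Gm26804 shares 4956 bases with 6820431F20Rik, 35000 bases with 2610005L07Rik and 25547 bases with the protein-coding Gm15319, all on the opposite strand. Reads from the shared bases cannot be assigned without strand. Most of the 34820 bases of 6820431F20Rik lie outside the span of Gm26804, and how reads were divided between these rows was not tested.

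**Figure D2:**
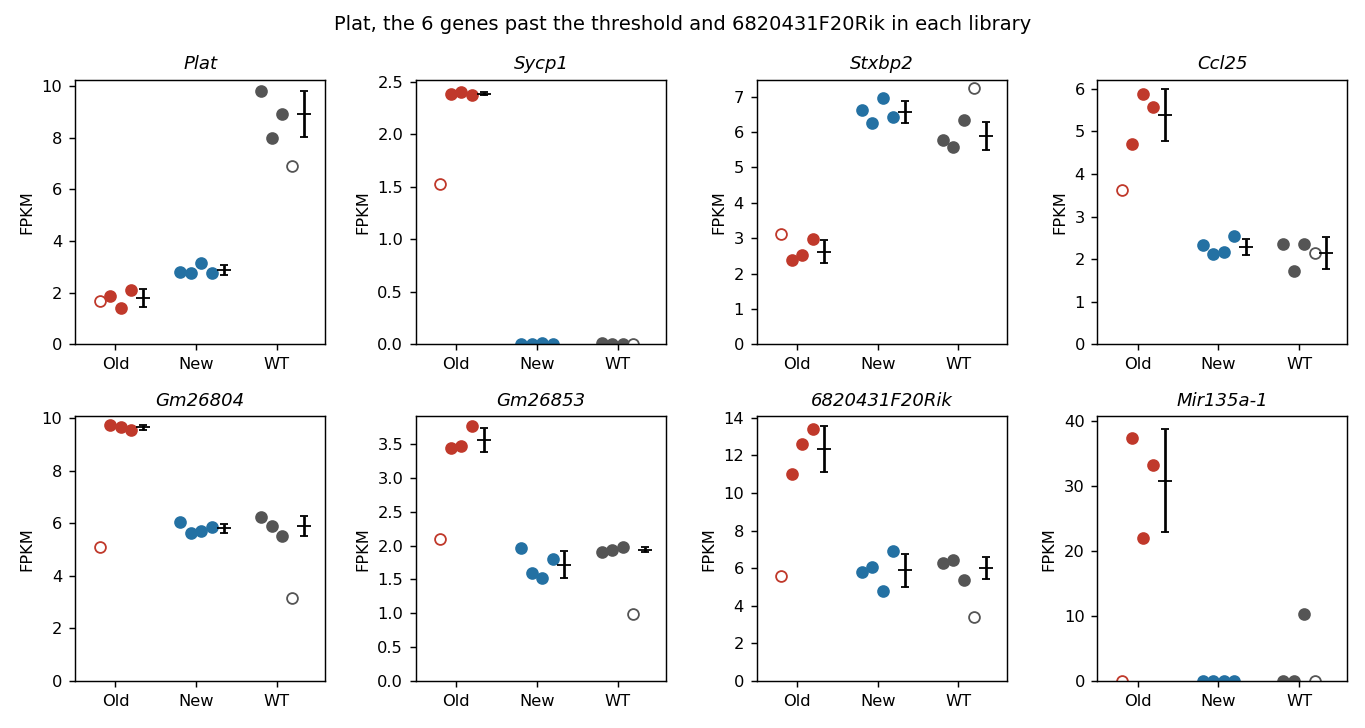
FPKM of Plat, the 6 called genes and 6820431F20Rik in each of the 12 libraries (vertical axes start at 0). Filled points are the libraries used, open points are Old 1 and WT 4, and black bars show the mean and SD of the filled points where no library was listed at 0; the New mean is nearer to WT 1 to 3 than to Old in every panel except that of Plat.

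The last called gene was Mir135a-1 on chromosome 9 (106154124 to 106154213, plus strand, GRCm38), which encodes a precursor of miR-135a, a microRNA expressed in brain. Its row stood at 37.4 FPKM in Old 2, 21.95 in Old 3 and 33.2 in Old 4 and was listed at 0 in all 4 New libraries. It was also listed at 0 in Old 1, WT 1, WT 2 and WT 4, and WT 3 stood at 10.3 FPKM. The fitted difference of 8.24 (limma, adjusted p = 2.94e-06) depends on the pseudocount and on zeros without spread, and no fold is given. The call was lost with Old 1 added (adjusted p = 0.929), with WT 1 to 3 in the fit (0.183) and with all 12 libraries (0.983). The annotated precursor has 90 bases. Such short spans were poorly measured here: of 244 tested genes under 200 bases, 161 of them microRNAs, 78.3% were listed at 0 in at least 1 library, and their median spread within a strain was 3.47 log2 units, against 0.154% and 0.096 for 15588 longer genes. Of the 219 genes that differed by more than 1 log2 unit, 169 were such short genes and 43 were longer. The strains overlapped for both transcripts that span this locus: D030055H07Rik (ENSMUSG00000086296.2), on the same strand, stood at 0.382 to 0.627 FPKM in Old and 0.495 to 0.714 in New. Glyctk, on the opposite strand, stood at 0.0434 FPKM or less in every one of the 7 libraries. Both were named after their values were seen.

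The mature microRNAs of this locus are printed from RefSeq (GRCm38.p6) to show what the row would encode, with the seed (bases 2 to 8) in capitals. The 2 arms have different seeds. The values of this row are not read as levels of mature microRNAs. The protocol describes polyA selection, which does not count mature microRNAs, while a description label calls the libraries rRNA-depleted.
mmu-miR-135a-5p: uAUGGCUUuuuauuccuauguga
mmu-miR-135a-1-3p: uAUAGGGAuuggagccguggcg

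Differences between the strains were more frequent on the part of chromosome 8 below Plat than elsewhere. Chromosome 8 held 4 of the 6 called genes among its 820 tested genes, and all 4 lay between the low end of the chromosome and Plat, where 110 genes other than Plat were tested. Of these 110, 25 had an unadjusted p under 0.05 (22.7%), against 685 of 15012 genes on other chromosomes (4.56%). Old was higher for 14 of the 25 and lower for 11, by 0.15 to 1.30 log2 units. Beyond Plat the share was 3 of 50 genes in the first 10 Mb (6%), 4 of 67 at 10 to 30 Mb (5.97%) and 24 of 592 farther out (4.05%). Below Plat it was highest more than 10 Mb away, at 16 of 55 genes (29.1%). The higher share of this stretch was seen under each of the 22 alternatives: 18 to 34 of its genes reached p under 0.05 (34 of 167 with no filter on low values), or 16.4% to 24.5%, against 1.03% to 5.86% on other chromosomes. Neighbouring genes are not independent, and this difference in shares was not tested.

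**Figure D3:**
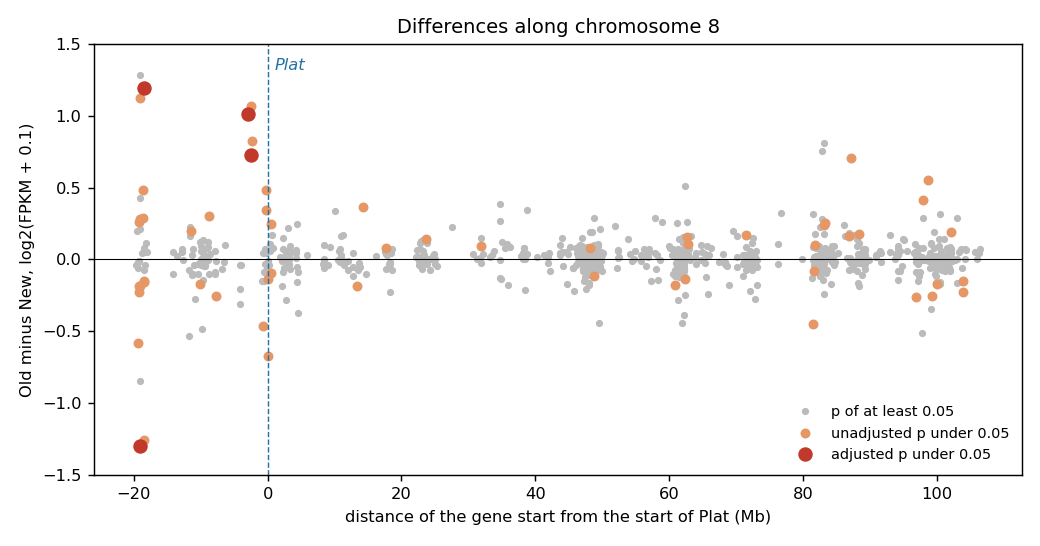
Difference between the strains (Old minus New, log2(FPKM + 0.1), vertical axis) for tested genes of chromosome 8 against the distance of the gene start from the start of Plat (Mb, horizontal axis; negative towards the low end). Orange points have an unadjusted p under 0.05 and red points are called; the 4 called genes lie below Plat, 2 of them near it and 2 at the far end.

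On this stretch it was Old that stood away from WT. Of all 16166 genes, 1638 (10.1%) had no overlap between Old 2 to 4 and WT 1 to 3, and 1746 (10.8%) had none between New 1 to 4 and WT 1 to 3. Both sets of values rest on the same WT libraries. The Old and New shares are not directly comparable, because 3 libraries separate from 3 by chance more often than 4 do. Each is therefore set against the share of the same strain over all genes. Among the 110 genes below Plat, Old did not overlap WT for 34 (30.9%) and New for 6 (5.45%). Of the 25 genes with p under 0.05 there, Old did not overlap WT for 21 and New for 0. Of the 685 such genes on other chromosomes the counts were 158 and 183. The labels give no genotypes of this stretch, and whether it differs in DNA between the strains was not tested.

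The far end of chromosome 8, 18.4 to 19.3 Mb below Plat, held Stxbp2 and Ccl25 and several genes that were not called, named after their values were seen except Mcoln1. Mcoln1, the lysosomal calcium channel mucolipin-1, stood at 14.1, 14.3 and 14.1 FPKM in Old and 16.0, 16.3, 17.3 and 16.9 in New (-0.23, SE 0.04; limma, adjusted p = 0.409). Pnpla6, an esterase whose loss causes nerve degeneration, stood at 10.1, 9.36 and 10.3 FPKM in Old and 7.96, 8.33, 8.38 and 8.27 in New (0.26, SE 0.04; adjusted p = 0.490). The strains did not overlap for either gene, and the direction was opposite. Fcer2a, the low-affinity IgE receptor of B cells, stood at 1.49, 1.39 and 1.27 FPKM in Old and 0.589, 0.452, 0.899 and 0.460 in New (1.12, SE 0.22; adjusted p = 0.733). Tgfbr3l (listed as Gm14378) stood at 0.736, 0.398 and 0.734 FPKM in Old and 1.89, 0.864, 1.98 and 1.89 in New (-1.26, SE 0.32; adjusted p = 0.960). Smaller differences without overlap were those of Pet100 (listed as 2900053A13Rik), an assembly factor of cytochrome c oxidase (0.28), Camsap3, which binds microtubule minus ends (-0.19), and Map2k7, a kinase upstream of JNK (-0.15). Xab2, a splicing factor gene from the same cluster, stood at 8.15 to 8.50 FPKM in Old and 8.14 to 8.63 in New. Higher and lower genes were thus neighbours, and not every gene of the cluster differed. Old 1 stood within the New range for Mcoln1 (17.0 FPKM), Fcer2a (0.79 FPKM), Tgfbr3l (1.525 FPKM) and Pet100 (6.61 FPKM). For Camsap3 it stood at 7.98 FPKM, above all New libraries. It lay on the side of the other Old libraries for Pnpla6 (15.2 FPKM) and Map2k7 (13.6 FPKM).

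Nearer to Plat, Smim19 (listed as AI316807), which encodes a small membrane protein, stood at 9.80, 10.2 and 9.22 FPKM in Old and 7.84, 7.73, 7.38 and 7.65 in New (0.34, SE 0.05; limma, adjusted p = 0.186). Gm17491 (ENSMUSG00000097042.1) beside it stood at 2.49, 2.44 and 2.44 FPKM in Old and 1.76, 1.75, 1.63 and 1.76 in New (0.49, SE 0.07; adjusted p = 0.198). Both lay less than 1 Mb below Plat, and neither overlapped between the strains. Old 1 stood at 9.15 FPKM for Smim19, above all New libraries, and at 1.67 FPKM for Gm17491, within the New range. On the other side of Plat, Ap3m2, a subunit of the neuronal adaptor complex AP-3, stood at 23.8 to 25.7 FPKM in Old and 26.1 to 27.6 in New (-0.14; adjusted p = 0.960). Golga7, a cofactor of protein palmitoylation, stood at 29.1 to 30.1 and 30.6 to 33.3 FPKM (-0.09; adjusted p = 0.960). Kbtbd11, a BTB and kelch domain gene 7.75 Mb below Plat, stood at 11.95 to 12.96 FPKM in Old and 14.4 to 16.2 in New (-0.25; adjusted p = 0.850). Ap3m2 and Golga7 were named after their values were seen. For Ap3m2, Golga7 and Kbtbd11, Old 1 stood at 22.4, 24.3 and 12.9 FPKM, below all New libraries. By comparison, of 214 genes within 10 Mb of Sycp1 on chromosome 3, 9 reached p under 0.05 (4.21%) with none of them called, and of 206 within 10 Mb of Mir135a-1 on chromosome 9, 7 did (3.4%).

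Away from chromosome 8, no gene other than Sycp1 and Mir135a-1 was called. The smallest p of an uncalled gene there was that of Frs3os (ENSMUSG00000086930.1), which stood at 2.23, 3.03 and 2.80 FPKM in Old and 1.58, 1.499, 1.19 and 1.39 in New (0.87, SE 0.13; limma, adjusted p = 0.396). WT 1 to 3 stood at 2.25 to 2.67 FPKM and so lay with Old. Some weakly expressed non-coding rows with a small p differed by more than 1 log2 unit. Gm20490 (ENSMUSG00000092596.1) stood at 0.641, 1.61 and 1.56 FPKM in Old and 0.206, 0.144, 0.203 and 0.337 in New (2.02, SE 0.35; adjusted p = 0.517), while WT 1 was listed at 0 and WT 2 and WT 3 stood at 1.94 and 1.35 FPKM. 5430427M07Rik (ENSMUSG00000085004.1) stood at 0.661, 2.35 and 1.14 FPKM in Old and 0.214 to 0.286 in New (1.95, SE 0.37; adjusted p = 0.701). Gm14133 (ENSMUSG00000087029.1) stood at 0.184 to 0.440 FPKM in Old and 0.627 to 1.39 in New (-1.61, SE 0.35; adjusted p = 0.850). The strains did not overlap for these rows, and Gm20490 and 5430427M07Rik were named after their values were seen. Frs3os and 5430427M07Rik are annotated as antisense, and without strand their reads cannot be told apart from those of the opposite gene. The protein-coding genes named next had smaller differences. Dcaf17, a substrate receptor of a CUL4 ubiquitin ligase, stood at 4.92, 4.72 and 4.98 FPKM in Old and 3.90, 3.59, 4.03 and 3.72 in New (0.35, SE 0.06; limma, adjusted p = 0.421). Arhgdib, a gene of blood cells, stood at 5.57, 6.14 and 5.89 FPKM in Old and 4.74, 4.801, 4.78 and 4.85 in New (0.29, SE 0.05; adjusted p = 0.438). Among genes lower in Old, Higd1b, a marker of pericytes, stood at 0.856, 0.980 and 0.830 FPKM against 1.80, 1.29, 1.48 and 1.43 (-0.69, SE 0.13; adjusted p = 0.701). None of these overlapped between the strains, but they were named for their small p, so this is no further support. Gadd45a, a growth arrest gene induced by DNA damage, stood at 1.96 to 2.08 FPKM in Old and 2.54 to 3.30 in New (-0.53; adjusted p = 0.738). Boc, a co-receptor for hedgehog signals, stood at 3.32 to 3.68 and 4.17 to 4.38 FPKM (-0.26; adjusted p = 0.742), Snrnp25, a protein of the minor spliceosome, at 3.02 to 3.65 and 4.36 to 5.08 FPKM (-0.44; adjusted p = 0.701), and Josd2, a deubiquitinase, at 11.2 to 12.7 and 13.96 to 15 FPKM (-0.25; adjusted p = 0.738). For Old 1 the last 3 stood at 4.44, 6.75 and 35.3 FPKM, above all New libraries. Old 1 was also above all New libraries for Gadd45a (3.51 FPKM) and Gm14133 (2.23 FPKM). For Dcaf17 and Arhgdib it stood at 3.26 and 4.14 FPKM, below all New libraries, and for Gm20490 at 0.160 FPKM, within the New range. It lay on the side of the other Old libraries for Frs3os (2.76 FPKM), 5430427M07Rik (0.501 FPKM) and Higd1b (0.627 FPKM).

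The other tested genes of the plasminogen activator system had smaller differences than Plat. Of 11 tested genes of a fibrinolysis list 0 were called, 2 were higher in Old and 9 lower, and the median difference was -0.03, against 0.01 for all tested genes. Among the inhibitors, neuroserpin (Serpini1) stood at 57.3, 63.5 and 59.2 FPKM in Old and 61.95, 60.3, 56.5 and 59.4 in New, and protease nexin-1 (Serpine2) at 47.2, 50.2 and 50.4 and at 50.03, 50.4, 53.0 and 50.7 FPKM. Their ranges overlapped, with differences of 0.01 (SE 0.05) and -0.05 (SE 0.04). The second plasminogen activator, urokinase (Plau), stood at 0.710 to 0.890 FPKM in Old and 0.675 to 1.005 in New. Lrp1 stood at 41.4 to 44.1 and 42 to 45.3 FPKM, and the plasminogen-binding pair Anxa2 and S100a10 at 3.74 to 4.37 against 3.19 to 4.90 and at 14.2 to 15.2 against 13.4 to 16.7 FPKM. Of 23 tested receptors and brain substrates of tPA, 0 were called, 11 were higher and 12 lower. Egfr, a growth factor receptor, was the member with the smallest p, at 3.45 to 3.71 FPKM in Old and 3.94 to 4.30 in New (-0.20, SE 0.06; limma, adjusted p = 0.960).

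Over 31 lists of pathways, cell types and brain regions, which held 646 tested genes, 3 genes were called, and these were Sycp1, Stxbp2 and Ccl25. Over all 16166 tested genes 6 were called (0.0371%). These 3 genes were known from earlier results of these data when the lists were written. Their calls are therefore no result about the lists. An unadjusted p under 0.05 was reached by 33 members (5.11%), close to the 4.68% of all tested genes, and 28 lists held no called gene. List medians other than that of the sex-linked genes ran from -0.21 to 0.15.

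The list with the lowest median was that of immediate early genes, which neurons switch on within minutes of activity. Of 27 tested, 25 were lower in Old and 2 higher, the median was -0.21, and 0 reached an unadjusted p under 0.05. Fos, named after its values were seen, stood at 9.04, 7.08 and 20.55 FPKM in Old and 24.2, 22.8, 5.69 and 19.6 in New. Egr1 stood at 77.4, 63.3 and 75.5 FPKM in Old and 98.8, 106.0, 54.0 and 81.95 in New. The lowest library was of the New strain for both genes, and the ranges overlapped widely. The summed level of the list was 326.6 to 458.9 FPKM in Old, 290.2 to 578.3 in New, 298.4 to 524.6 in WT 1 to 3 and 788.3 in Old 1. The count of 25 was not tested.

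Glial and vascular lists held no called gene. Of 27 tested oligodendrocyte and myelin genes 23 were lower in Old and 4 higher (median -0.06). Mbp, a main protein of central myelin, stood at 825.8 to 914.8 FPKM in Old and 835.8 to 933.7 in New. The summed level of the list overlapped between the strains, at 2174 to 2354 FPKM in Old and 2210 to 2442 in New. Of 23 astrocyte genes 11 were higher and 12 lower, with the glutamate transporter Slc1a2 at 365.6 to 396.3 and 375.5 to 382.2 FPKM. Of 23 microglia and complement genes 6 were higher and 17 lower. Mural cell genes had 3 of 14 higher and a median of -0.08, and endothelial genes 8 of 20 higher and -0.02. The summed level of the mural cell list did not overlap, at 60.9 to 62.1 FPKM in Old and 63.4 to 67.8 in New. WT 1 to 3 stood at 62.4 to 63.8 FPKM for this sum, and Old 1 at 66.5 FPKM lay within the New range. Ependymal and cilia genes, with 14 of 17 higher, had a median of 0.12. Ccdc153, expressed in ciliated ependymal cells, stood at 2.33, 1.87 and 2.58 FPKM in Old and 1.60, 1.58, 1.55 and 1.48 in New (0.50, SE 0.11; adjusted p = 0.850), while Ccdc39, an assembly factor of cilia, stood at 7.99 to 9.54 and 8.25 to 9.81 FPKM.

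Neuronal lists were likewise without a call. Of 36 glutamate and GABA receptor subunits 22 were higher and 14 lower in Old (median 0.01). Gria2, the AMPA receptor subunit that limits calcium entry, stood at 143.5, 145.9 and 136.7 FPKM in Old and 130.2, 130.8, 132.0 and 129.8 in New, without overlap (0.12, SE 0.03; limma, adjusted p = 0.960). WT 1 to 3 stood at 134.3 to 143.1 FPKM and overlapped with Old 2 to Old 4. Old 1, at 76.3 FPKM, lay below all New libraries. Cortical and hippocampal neuron genes had 20 of 28 higher and a median of 0.03, interneuron genes 16 of 23 and 0.02, striatal genes 12 of 24 and 0.01, and thalamic genes 12 of 19 and 0.01. Of 19 hypothalamic neuropeptide genes 12 were higher, with oxytocin (Oxt) at 5.03 to 7.64 FPKM in Old and 3.16 to 5.64 in New. All 7 tested genes of monoamine neurons were lower, with a median of -0.09. The dopamine transporter gene Slc6a3 ranged from 0.304 to 2.25 FPKM within Old alone and from 1.05 to 2.29 in New (-1.07, SE 0.56), and without Old 4 the median of the list was -0.30.

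Among housekeeping and response lists, cytosolic ribosomal protein genes had 26 of 63 higher (median -0.01), oxidative phosphorylation genes 24 of 55 (-0.01) and heat shock genes 9 of 20 (-0.01). Cholesterol synthesis genes had 8 of 24 higher (-0.03). Acat2, which makes acetoacetyl-CoA, stood at 5.42, 5.55 and 5.12 FPKM in Old and 6.85, 6.34, 6.67 and 5.58 in New (-0.24, SE 0.08; limma, adjusted p = 0.960). Its ranges did not overlap, by a narrow margin. Interferon and antigen presentation genes had 9 of 19 higher (-0.01), circadian clock genes 7 of 21 (-0.04) and glucocorticoid response genes 11 of 22 (0.02). The metallothionein gene Mt1, induced by glucocorticoids and metals, stood at 191.7, 183.0 and 176.8 FPKM in Old and 154.6, 170.2, 163.7 and 164.7 in New (0.17, SE 0.04; adjusted p = 0.960). Markers of tissue at the edge of the dissection also overlapped in summed level: choroid plexus genes at 241.2 to 305.1 and 237.6 to 275.3 FPKM, meninges and fibroblast genes at 315.7 to 409.0 and 336.5 to 497.6, blood cell genes at 81.6 to 100.1 and 62.8 to 97.6, and olfactory bulb and cerebellum genes at 82.3 to 91.6 and 81.6 to 83.6. Of these lists 10 of 17, 10 of 17, 6 of 7 and 10 of 14 members were higher in Old, and 0 were called. In the olfactory bulb and cerebellum list 2 members had an unadjusted p under 0.05, and neither overlapped between the strains. Both are zinc finger genes of the developing brain: Zic1, also on the thalamic list, stood at 9.25 to 10.4 FPKM in Old and 7.61 to 9.001 in New (0.25, SE 0.07; adjusted p = 0.960), and Zic2 at 6.28 to 6.82 and 5.17 to 6.13 FPKM (0.22, SE 0.07; adjusted p = 0.960). Old 1 lay on the side of the other Old libraries for Acat2 (4.985 FPKM), Mt1 (322.9 FPKM), Zic1 (10.22 FPKM) and Zic2 (7.036 FPKM). Sex-linked genes had 7 of 9 higher and 0 called (median 0.44), with 1 library carrying Ddx3y in each strain.

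**Figure D4:**
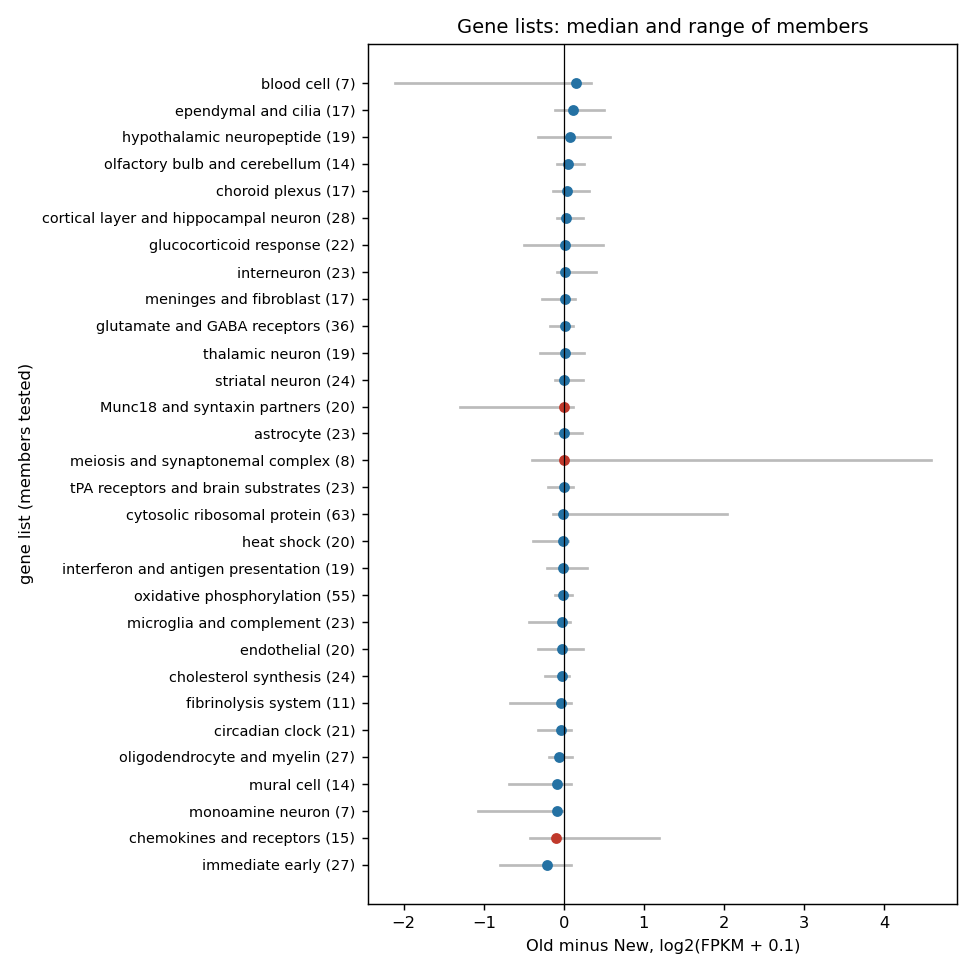
Median difference between the strains (points; Old minus New, log2(FPKM + 0.1)) and range of members (grey lines) for 30 gene lists, with the number of tested members in brackets; the list of sex-linked genes is not drawn. Red points mark the 3 lists with a called gene (Sycp1, Stxbp2 or Ccl25, each known from earlier results of these data). The black line is the median of all tested genes, and the list medians lie between -0.21 and 0.15.

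The number of called genes depended on the libraries in the fit. Leaving out 1 of the 7 libraries gave 5 to 14 called genes, with 14 without Old 2 and 9 without New 2. With Old 1 added it was 2, Sycp1 and Stxbp2. With Old 1 added and the GC trend of each library removed, a setting chosen after the data were seen, it was 5, namely the same 2 with Ccl25, Gm26804 and Gm26853. With all 12 libraries it was 2, and 4 with the GC trend removed, where Ccl25 was not called.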

How the data were processed

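RNA was extracted from snap-frozen brain of 12 mice and, per the labels' protocols, polyA-selected TruSeq libraries that do not mark strand were sequenced as paired ends with 4 barcoded samples together. A description label calls the libraries rRNA-depleted, and the lane of each sample is not stated. The authors deposited FPKM values for 27131 genes, 1 column per library. The tools named in the submitters' processing notes are FastQC, Bowtie2 2.1.0 and TopHat2 2.0.9, and also Cufflinks and Cuffdiff 2.1.1, on mm10. How libraries were normalized, which gene models were used and whether strand was set is not given in those sources. FPKM holds no counts, so read depth is unknown, and a value of exactly 0 says only that a gene is listed at 0.

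Row names were matched to GENCODE M21 (GRCm38, the same build) by symbol (20672), Ensembl identifier (3914) or synonym (1839). Of the rest, 25 were date-like names and 681 were unmatched. Groups and numbers follow the titles, with replicate numbers given in accession order. Genes with a mean of at least 0.5 FPKM over the 7 libraries were fitted as log2(FPKM + 0.1) with limma 3.58.1 (trended empirical Bayes, R 4.3.3), Old minus New. Adjusted p-values in the text are limma's, Benjamini-Hochberg over all 16166 tested genes, with a threshold of 0.05. SE is the standard error from that fit. The script was tested on simulated data. Fold changes on this scale understate changes of low genes. GC content was known for 97.9% of tested genes. P-values set the difference between the strain means against the spread between mice within the strains, pooled over both and moderated across genes. Litter or cage is not given.

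The comparison, the libraries, the 31 gene lists and the named genes were chosen with earlier results of these data known, so no call here is independent support for those results. Named were Plat, Sycp1, Stxbp2, Ccl25, the called genes, the 12 genes with the smallest p in each direction among those of at least 1 FPKM in the higher strain, the fibrinolysis genes, up to 4 members of each other list (2 by p, 2 by level) and the 5 genes with the smallest p within 10 Mb of Plat. Others are marked as named after their values were seen, apart from Penk, Th and Camk2a, used to check the tissue, and Ddx3y. Not all named genes are reported here.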

Additional observations from a re-analysis of the deposited data

Results flagged for a closer look

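In 107 groups of 4 libraries, 15 values stood apart from the other 3 by more than Dixon's 95% critical value, and chance alone flags about 1 in 20 groups. For genes, only the New libraries were looked at, so gene values of Old and WT were not screened. The GC deviations were looked at in Old, New and WT. For Plat, New 3 was high at 3.147 FPKM, and the same library was the New library with any Sycp1 (0.01568 FPKM), was low for Gm17491 (ENSMUSG00000097042.1, 1.634 FPKM) and was high for Lrp1 (45.3 FPKM). The flag for Sycp1 rests on the other New libraries being listed at 0. New 2 was low for Tgfbr3l (Gm14378, 0.8643 FPKM) and high for the microglial gene Aif1 (2.939 FPKM). New 4 was high for the pseudogene 2610005L07Rik (1.207 FPKM) and for Th (3.202 FPKM). New 1 was high for Cox5b, a subunit of cytochrome c oxidase (147.7 FPKM), and for the Y-linked Ddx3y (13.43 FPKM), and low for the X-linked Kdm5c (9.393 FPKM). The median deviation of transcripts under 40% GC was -0.5512 log2 units in Old 1 and -0.7092 in WT 4, and that of transcripts of at least 60% GC was 0.6989 and 0.6257.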

How the results depend on the processing

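Of the 22 alternatives, 19 were planned and 3 (Old 1 added or all 12 libraries, each with the GC trend removed, and genes of at least 200 bases) were chosen after seeing the data. The 6 called genes became 2 with Old 1 added and 2 with all 12 libraries in the fit. In both fits 1 was higher in Old and 1 lay on chromosome 8. With all 12 libraries and the GC trend removed, 3 genes higher in Old were called. Leaving out 1 library gave 5 to 14 called genes, 4 to 7 higher and 1 to 7 lower in Old, with 2 to 3 on chromosome 8. Of the values of named genes, 0 reversed, 23 lost and 4 gained the call over the alternatives, and 150 uncalled values changed sign. Of 682 list medians, 20 moved beyond the spread, 18 of them in fits with Old 1. Genes with an unadjusted p under 0.05 numbered 757, against 271 with Old 1 added, 478 with Old 1 added and the GC trend removed, 189 with all 12 libraries, 384 with all 12 and the GC trend removed, and 1188 with no filter on low values. The cause was not tested. No paired analysis was possible because the titles of Old and New carry no shared replicate numbers. Genes under 1 FPKM and short genes limit the precision.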

Other observations

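New 3 carried neither of the usual sex-specific transcripts: Ddx3y was listed at 0 and Xist, the RNA that coats the inactive X chromosome, stood at 0.00152 FPKM. The other libraries without Ddx3y in these strains, Old 2, Old 3, New 2 and New 4, stood at 1.77, 2.75, 2.49 and 3.76 FPKM for Xist. For Eif2s3x, an X-linked gene that escapes inactivation, New 3 stood at 39.4 FPKM, between New 1 (27.2 FPKM, with Ddx3y) and New 2 (42.3 FPKM, without). Rpl30, a ribosomal protein gene listed at low values here, stood at 2.12, 1.52 and 3.27 FPKM in Old 2 to Old 4 and at 1.22, 0, 1.18 and 0.492 FPKM in New 1 to New 4.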
